A study of Mus musculus with 20 samples.

Results

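The Fzd9 region is a stretch of mouse chromosome 5 (mm9 assembly, chr5:135715000-135740000) defined as Fzd9 with its upstream flank; no mm9 gene annotation was used here to place the gene within it. The region was chosen by the read counts of an interval in it that crossed over between cell types with age, with fewer reads in neurons at birth and more at weaning. Its members are all SmaI/XmaI intervals of the deposited table that overlap these coordinates, 4 of 50782 in all, and 2 of the 4 held enough reads to be tested. DNA methylation was measured in hypothalamus of male C57BL/6 mice, an inbred laboratory strain with no transgene or treatment named. The 4 groups were neurons and non-neurons at postnatal day 0 (P0) and neurons and non-neurons at postnatal day 21 (P21), with 5 libraries in each. Nuclei were sorted by fluorescence after staining for NeuN, a nuclear marker of neurons. Each sorted sample pooled 2 hypothalami, so a library is a mean over animals and over all cells within a gate, and a change in the mix of cells cannot be told apart from a change of methylation within cells. The purity of the sorted nuclei was not tested, since the table holds methylation reads by position and no expression.

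Fzd9 encodes a Frizzled protein, a membrane receptor for secreted Wnt ligands, whose signalling patterns the developing brain and controls the growth of neural progenitors. In RefSeq (GRCm38.p6) its neighbours on the chromosome are Baz1b, which encodes a chromatin remodelling subunit, and Fkbp6, which encodes an immunophilin needed for male meiosis. The human counterparts of all of these genes lie in the segment deleted in Williams-Beuren syndrome. Methylation of cytosine in CG pairs is known to be rearranged in brain cells after birth, and methylation at a CG-rich promoter usually goes with a silent gene.

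The assay reads methylation at the sequence CCCGGG. SmaI first cuts unmethylated sites and leaves blunt ends, XmaI then cuts the methylated sites that remain, and adaptors join the XmaI ends, so that PCR copies an interval only if methylation is present at each of its end sites. Such a site lies in the RefSeq promoter of Fzd9. The 250 bases before the annotated start of Fzd9 (GRCm38.p6, minus strand of chromosome 5) are shown because they hold the only kind of site this assay can see, with the CCCGGG in capitals.
Fzd9: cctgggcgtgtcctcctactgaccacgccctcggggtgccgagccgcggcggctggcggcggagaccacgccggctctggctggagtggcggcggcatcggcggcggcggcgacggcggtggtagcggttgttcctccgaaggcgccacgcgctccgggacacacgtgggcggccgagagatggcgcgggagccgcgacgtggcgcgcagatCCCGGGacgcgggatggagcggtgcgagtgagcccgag
The window holds 1 CCCGGG, whose first base lies 38 bases before the start, and 42 CG pairs at a GC content of 76.4%. The motif reads the same on both strands, and it was found in 3673 of 32851 promoter windows of that length (11.2%). Of 11 Frizzled family genes looked up, 7 had a window in the table and 3 of these held the site, namely Fzd5, Fzd9 and Fzd10. The promoter sequence and the interval table are on different assemblies, so which interval, if any, ends at the promoter site was not determined, and no interval is assigned here to an exon, intron or promoter.

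Along the chromosome, 3 of the 4 intervals touched end to end and shared cut sites. The first, chr5:135725243-135726950, was 1707 bp long. The second, chr5:135726950-135729398, was 2448 bp long and shared a site with each of its neighbours. Next came the crossover interval, chr5:135729398-135730353, with 955 bp. The fourth, chr5:135734356-135734763, was 407 bp long and began 4003 bp beyond the end of the crossover interval, a gap longer than the longest interval of the table (3000 bp). The 1707-bp and 955-bp intervals have no cut site in common and lie 2448 bp apart. On the lower side the nearest interval outside the region was 97 bp long and held no read in any library. It ended 61.4 kb before the start of the 1707-bp interval. On the upper side the nearest was chr5:135825720-135827818, which began 91.0 kb beyond the end of the 407-bp interval. Its level was 4.80 ± 1.28 CPM in P0 neurons, 5.33 ± 1.70 in P0 non-neurons, then 10.9 ± 1.67 in P21 neurons against 10.4 ± 1.85 in P21 non-neurons (SD over 5 libraries in each group). CPM is the normalised read count, in reads per 1000000 of the TMM-scaled library.

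**Figure D1:**
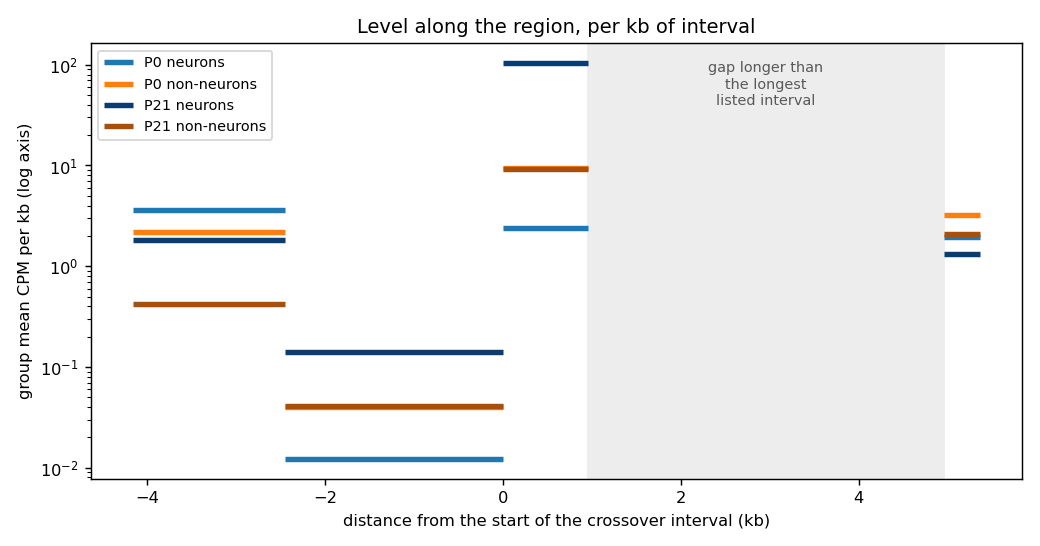
Group mean CPM per kb of interval (log axis) against distance from the start of the crossover interval in kb, with each horizontal bar spanning an interval and colours for the 4 groups. P21 neurons stand at 103.7 CPM per kb over the crossover interval and at 0.140 over the touching 2448-bp interval, and the bars of P0 and P21 non-neurons nearly coincide over both.

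Total reads per library ran from 5663740 to 9998110. Replicates 1 to 3 of P0 neurons stood apart from replicates 4 and 5 on the third principal component of all tested intervals (30.2 to 44.3 against -18.9 and -15.7; 5.06% of the variance). In P0 non-neurons the same component also ran lower in replicates 4 and 5 (-27.2 and -42.6) than in replicates 1 to 3 (-16.2 to 9.22), and the labels name no batch. The split was not clean between whole libraries, compared by chi-square per degree of freedom. In P0 non-neurons replicate 3 differed less from replicate 4 (3.22) than from replicates 1 and 2 (4.43 and 4.67). In P0 neurons replicate 3 differed from replicates 4 and 5 (3.24 and 3.10) about as much as from replicates 1 and 2 (3.36 and 3.03). P0 values are given below for replicates 1 to 3 and for replicates 4 and 5 where this moves them.

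The crossover interval had its lowest level in P0 neurons and its highest in P21 neurons, which was also the highest level of the region, while the 2 non-neuronal groups lay between them and overlapped each other. In P0 neurons it had 1.04, 2.10, 2.11, 3.43 and 2.73 CPM in replicates 1 to 5. P0 non-neurons had 10.9, 8.50, 13.7, 6.48 and 5.94 CPM, so every P0 non-neuronal library lay above every P0 neuronal library. In P21 neurons the values were 106.4, 98.0, 92.4, 104.7 and 93.5 CPM, a tight group with all libraries far above those of the other 3 groups. P21 non-neurons had 8.93, 5.62, 10.1, 9.03 and 10.7 CPM and overlapped P0 non-neurons.

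These values chose the region and are given as a description with no test. Group means were 2.28 ± 0.885 CPM in P0 neurons, 9.10 ± 3.24 in P0 non-neurons, then 99.0 ± 6.39 in P21 neurons against 8.88 ± 1.97 in P21 non-neurons (SD over 5 libraries in each group). The mean of P0 neurons was 3.99-fold below that of P0 non-neurons, and the mean of P21 neurons was 11.1-fold above that of P21 non-neurons. Within neurons the mean rose 43.4-fold from P0 to P21, whereas in non-neurons the P0 and P21 means lay within 1.03-fold of each other. Fitted to all 20 libraries, the neuron minus non-neuron difference was -2.0 ± 0.24 at P0 and 3.47 ± 0.16 at P21 on the log2 scale (SE), and the change of this difference from P0 to P21 was 5.47 ± 0.28. Ordered by size among the 26679 tested intervals, that difference stood at place 8 from the top, the neuronal change with age (5.42 ± 0.20) at place 16 from the top, and the P0 difference at place 79 from the bottom. The non-neuronal change with age (-0.05 ± 0.18) was near the middle of the order, at place 14517 from the top.

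The number of reads at the interval behind these levels differed by group. The crossover interval carried 70 reads in the 5 P0 neuronal libraries together, 300 in P0 non-neurons, 342 in P21 non-neurons and 4636 in P21 neurons, and its lowest single value was 6 reads in P0 neurons replicate 1. The P0 difference depended on the replicates: among replicates 1 to 3, neurons had 1.75 and non-neurons 11.0 CPM on average, and among replicates 4 and 5 they had 3.08 and 6.21 CPM. Fitted with P0 replicates 1 to 3 alone the P0 difference was -2.64 ± 0.27 (SE, log2), and with replicates 4 and 5 alone it was -1.02 ± 0.30. The non-neuronal change with age had opposite signs in these fits, -0.33 with P0 replicates 1 to 3 and 0.52 with replicates 4 and 5. Every P0 neuronal library lay below every P0 non-neuronal one, so any subset must show neurons lower and without overlap. The subsets therefore inform only on the size of the P0 difference. The part that differences among the P0 libraries play in the P0 level was not tested further.

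**Figure D2:**
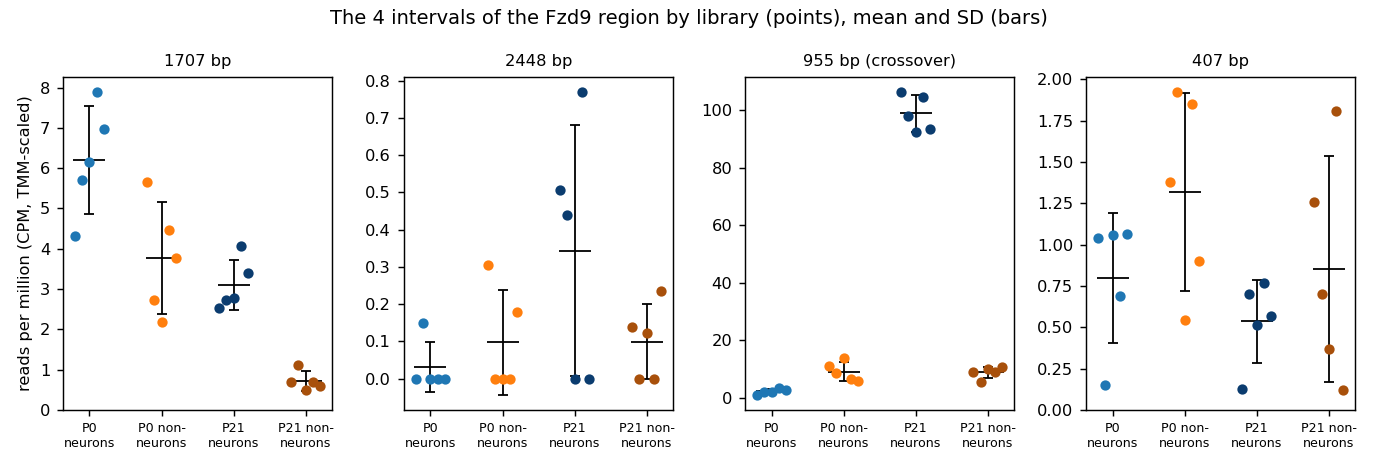
CPM of each library (points) with group mean and SD (bars) for the 4 intervals in chromosomal order, each panel on its own linear axis. The crossover interval (955 bp) stands at 92.4 to 106.4 CPM in P21 neurons and under 14 in every other library, the 1707-bp interval is lowest in P21 non-neurons, and the other 2 intervals stay under 2 CPM.

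**Figure D3:**
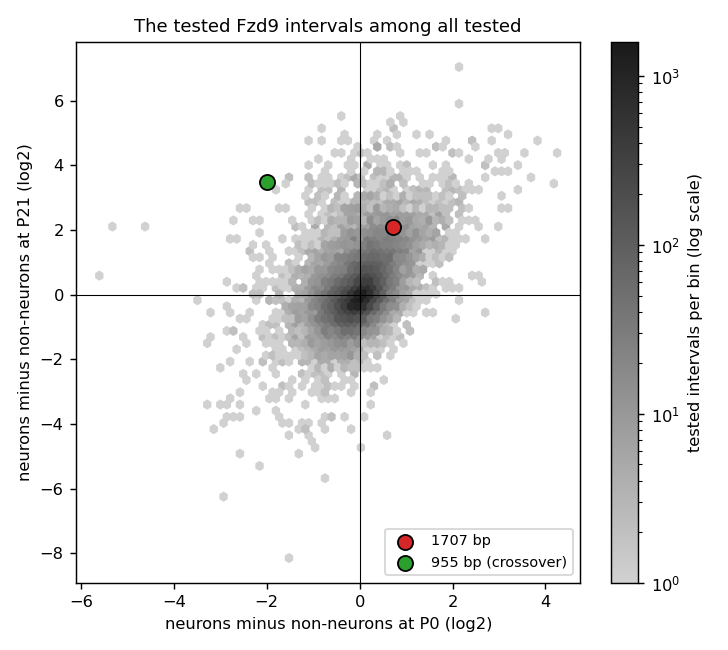
Neuron minus non-neuron difference at P0 (x axis, log2) against the same at P21 (y axis, log2) for all 26679 tested intervals, shaded by number per bin. The crossover interval lies in the upper left at -2.0 and 3.47, and the 1707-bp interval in the upper right at 0.73 and 2.10.

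The 1707-bp interval, which ends 2448 bp before the crossover interval begins, took another course: its reads fell with age in both cell types, and further in non-neurons. P0 neurons had 4.32, 5.70, 6.16, 7.89 and 6.98 CPM in replicates 1 to 5. P0 non-neurons had 5.66, 2.73, 2.18, 4.48 and 3.78 CPM and overlapped P0 neurons. P21 neurons held 2.53, 2.73, 2.77, 4.07 and 3.39 CPM, all below the P0 neuronal libraries. P21 non-neurons were at 0.697, 1.12, 0.495, 0.695 and 0.587 CPM, below all other libraries of the study at this interval.

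Its values were not used to choose the region, so the comparisons were tested, with edgeR's quasi-likelihood test over all 26679 tested intervals and Benjamini-Hochberg adjustment. With age the interval fell in neurons from 6.21 ± 1.35 to 3.10 ± 0.631 CPM (SD, n = 5 each), a log2 change of -1.0 ± 0.25 (SE; edgeR adjusted p = 0.000758). Of all tested intervals, 57.3% were called for this comparison. In non-neurons it fell from 3.76 ± 1.39 to 0.719 ± 0.241 CPM, a log2 change of -2.37 ± 0.33 (SE; edgeR adjusted p = 1.12e-07), against a background of 54.3% called. The age change of the 1707-bp interval was thus 1 of many in each cell type, with a 2.00-fold fitted fall in neurons (95% interval 1.43 to 2.81) and a 5.17-fold fall in non-neurons (3.31 to 8.09). Removing from each library its trend with interval length gave -1.45 in neurons and -2.77 in non-neurons. P0 neurons averaged 5.39 CPM in replicates 1 to 3 and 7.43 in replicates 4 and 5. The neuronal change was -0.80 with P0 replicates 1 to 3 alone (edgeR adjusted p = 0.0241) and -1.26 with replicates 4 and 5 alone (edgeR adjusted p = 0.000699). In non-neurons it was -2.28 and -2.52 in these fits.

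Between cell types, the 1707-bp interval was 4.27-fold higher in neurons at P21 (95% interval 2.75 to 6.65; log2 difference 2.10 ± 0.33, SE; edgeR adjusted p = 1.07e-06), where 35.8% of tested intervals were called, and all 5 neuronal libraries lay above all 5 non-neuronal ones. At P0 the log2 difference was 0.73 ± 0.25 (SE) and missed the threshold (edgeR adjusted p = 0.0643), in a comparison with 9.78% of intervals called. With limma-voom the P0 difference was called (limma-voom adjusted p = 0.0325), and it was also called without P0 neurons replicate 1 or without P0 non-neurons replicate 1 (edgeR adjusted p = 0.0395 and 0.0204). Every other setting run left it uncalled. With P0 replicates 1 to 3 alone it was 0.62 ± 0.34 (SE; edgeR adjusted p = 0.365). With replicates 4 and 5 alone it was 0.84 ± 0.37 (SE; edgeR adjusted p = 0.337).

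The change of the cell type difference with age was 1.37 ± 0.42 on the log2 scale at this interval (SE; edgeR adjusted p = 0.0197), with 14.1% of tested intervals called. Reads were few in P21 non-neurons, which held 4 to 8 per library, 27 in all. The call was lost without P0 non-neurons replicate 1 (1.17 ± 0.42; edgeR adjusted p = 0.0604), with P0 replicates 4 and 5 alone (1.26 ± 0.49; edgeR adjusted p = 0.127) and with limma-voom (1.27 ± 0.45; limma-voom adjusted p = 0.0606). The difference was positive under every setting run. In neurons, then, the 1707-bp interval fell by 1.0 on the log2 scale while the fitted level of the 955-bp interval was higher at P21 by 5.42, and across the 20 libraries their log2 CPM values had a Pearson correlation of -0.19, a description over libraries of 4 groups.

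**Figure D4:**
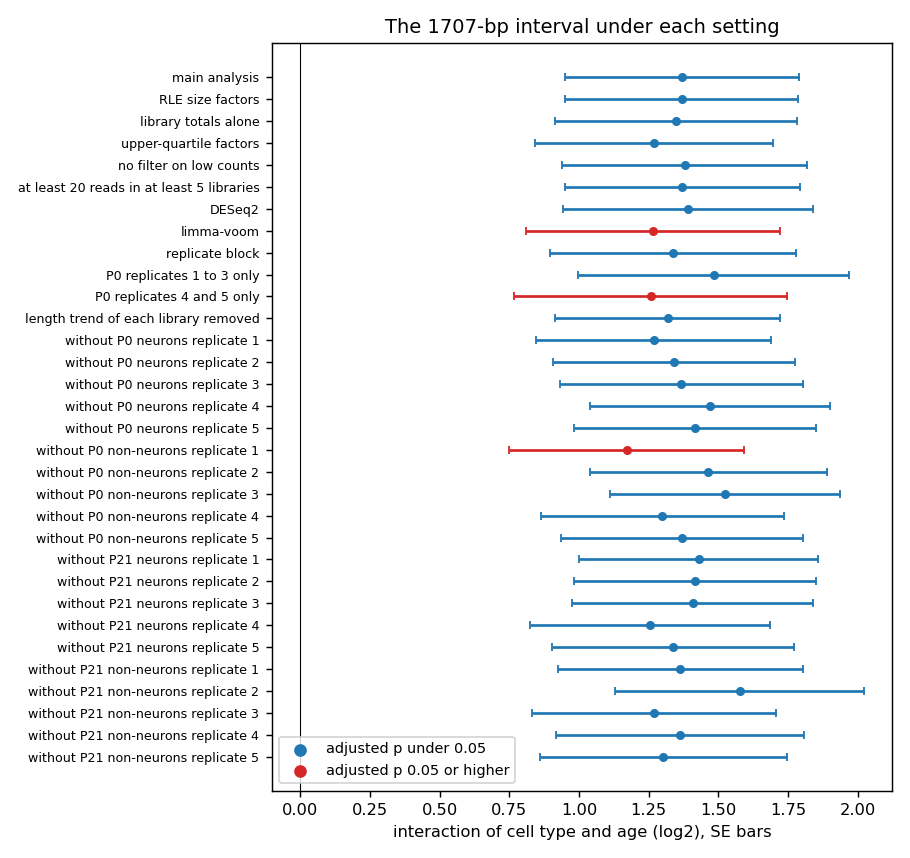
Interaction of cell type and age at the 1707-bp interval (x axis, log2, with SE bars) under the main analysis and each alternative. All estimates lie between 1.17 and 1.58, and 3 of the alternatives (red) have an adjusted p of 0.05 or higher.

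Between these 2 intervals, the 2448-bp interval was almost without reads, although each of its end sites is also an end of an interval that was read. P0 neurons had 1 read in 5 libraries together, P0 non-neurons 3, P21 neurons 16 and P21 non-neurons 4. Per library the P21 neurons had 4, 5, 0, 7 and 0 reads, so the group overlapped all others. The reads of P21 neurons amount to 0.356 per 1000000 counted reads (exact Poisson 95% interval 0.203 to 0.577, for counting error only), and those of P0 neurons to 0.0297 (0.000752 to 0.165). The interval did not pass the filter on low counts and has no test in the main analysis. With no filter, its log2 change with age in neurons was 2.87 ± 1.15 (SE; edgeR adjusted p = 0.0372), where 17535 of 44545 intervals were called. The interval shares an end site with the crossover interval, whose values chose the region, so this p is not an independent test. The other comparisons did not pass (edgeR adjusted p = 0.257 to 0.965).

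Read level depends on interval length in this assay. Over the whole table the median of the mean level was 21.4 CPM per kb at 800 to 1200 bp. It fell to 2.70 at 1600 to 2000 bp and 0.756 at 2400 to 3000 bp. Without division by length these medians were 21.7, 4.87 and 2.04 CPM. Shorter intervals were lower as well, with medians of 17.1 CPM per kb at 400 to 800 bp and 0.332 at 60 to 400 bp. In P21 neurons the 2448-bp interval had 0.140 ± 0.138 CPM per kb, against 1.81 ± 0.369 for the 1707-bp and 103.7 ± 6.69 for the 955-bp interval (SD, n = 5 each). For a closer background, all chains of 3 touching intervals with a middle interval of 2000 to 3000 bp were taken in which both outer intervals had at least 3.10 CPM in P21 neurons, the level of the 1707-bp interval. There were 376 such chains, with a median of 8.72 CPM in the middle interval, and in 5 of them (1.33%), the Fzd9 chain included, the middle interval was at or below 0.343 CPM, its level here. Where the weaker outer interval lay between 3.10 and 6.19 CPM, this held for 4 of 138 chains (2.90%). This background was chosen after the values were seen and is a description. The part that length plays in the low count was not tested.

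The isolated 407-bp interval was read at a low level in every group. Its reads per library were 6, 1, 6, 4 and 7 in P0 neurons, and 9, 12, 4, 12 and 5 in P0 non-neurons. In P21 neurons they were 1, 8, 5, 7 and 5, and in P21 non-neurons 9, 5, 3, 13 and 1. All groups overlapped, with group means of 0.535 to 1.32 CPM. It did not pass the filter on low counts. With no filter its log2 difference between P21 and P0 neurons was -0.50 ± 0.55 (SE; edgeR adjusted p = 0.492), with a cell type difference of -0.73 ± 0.51 at P0 (edgeR adjusted p = 0.558) and -0.58 ± 0.52 at P21 (edgeR adjusted p = 0.503). Between P21 and P0 non-neurons the difference was -0.65 ± 0.49 (SE; edgeR adjusted p = 0.308). The interaction was 0.15 ± 0.76 (SE) and was not called.

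Intervals elsewhere with the most similar course were found by the Pearson correlation of log2 CPM with the crossover interval over the 20 libraries. The 5 highest were chr11:87982261-87983191 (r = 0.975), chr9:100173037-100173458 (r = 0.974), chr2:33556250-33557035 (r = 0.973), chr9:97573203-97574037 (r = 0.972) and chr18:78651185-78651820 (r = 0.971). Over all tested intervals outside the region the median r was 0.07 and the 95th percentile 0.743. The libraries fall into 4 groups, so r mainly reflects the relative spacing of the group levels on the log2 scale. It ignores their overall level and the size of the changes. All 5, picked by this r, had their lowest mean in P0 neurons and their highest in P21 neurons, as the crossover interval did. The interval chr2:33556250-33557035 went from 4.03 ± 1.19 CPM in P0 neurons to 61.5 ± 5.67 in P21 neurons, with 8.62 ± 1.02 and 11.8 ± 2.30 in non-neurons at P0 and P21 (SD, n = 5 each). At chr9:100173037-100173458 the neuronal mean was 3.65 ± 0.762 CPM at P0 and 45.0 ± 3.46 at P21, beside 7.24 ± 1.32 and 8.70 ± 0.562 for non-neurons. The interval chr18:78651185-78651820 held more reads in all groups, 61.4 ± 9.61 CPM in P0 neurons, 99.6 ± 18.8 in P0 non-neurons, then 360.8 ± 46.0 in P21 neurons against 119.9 ± 14.4 in P21 non-neurons.

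**Figure D5:**
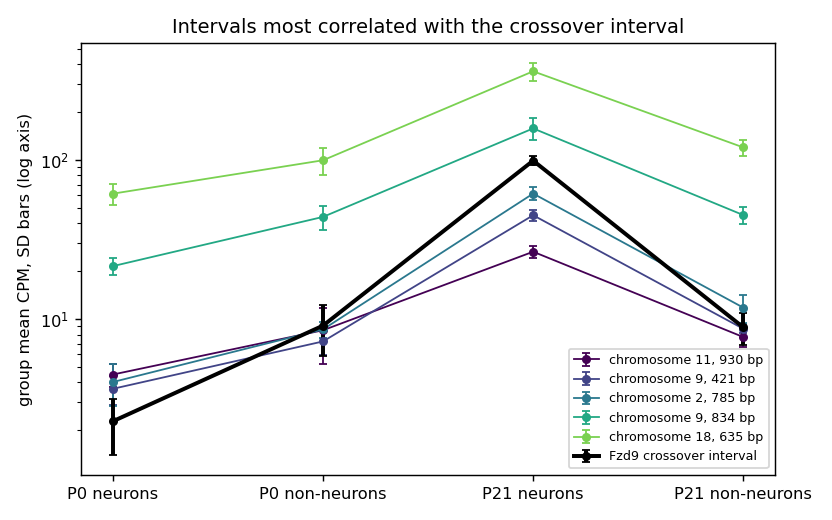
Group mean CPM with SD bars (log axis) in the 4 groups for the crossover interval (black) and the 5 intervals most correlated with it, each line joining the groups of the same interval. All 6 are lowest in P0 neurons and highest in P21 neurons, and the Fzd9 crossover interval runs from 2.28 to 99.0 CPM.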

How the data were processed

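The authors deposited raw read counts per SmaI/XmaI interval in 20 libraries; that these are counts follows from the values, which are whole and sum to different totals. Per the submitters' processing notes, FastQC 0.10.1, cutadapt, Bowtie 0.12.9 and mm9 were used; the counting step was not given in the sources used here. Column names give the age, the replicate and a letter (N was taken as neurons and G as non-neurons, since the series' title speaks of glia), and 0 columns were left over. With edgeR 4.0.16 in R 4.3.3, intervals were kept by filterByExpr (minimum count 10, total at least 15, which is about 1.42 CPM in at least 5 libraries), scaled by TMM and fitted with 1 mean per group (glmQLFit, robust; glmQLFTest). An adjusted p under 0.05 over 26679 intervals was a call. SE is the log2 change divided by the square root of F, and fold intervals are 95%. Log2 CPM used a prior count of 2. The functions were tested on simulated counts. Alternatives were other scalings, filters, DESeq2 1.42.0, limma-voom (limma 3.58.1), fits of the compared groups, replicate blocks, subsets of P0 libraries, a lowess length correction (span 0.2) and leaving out each library. Every interval of the region is named, and outside it the 5 most correlated and the nearest on each side. Members and lists were chosen with earlier results of these data known. Gene positions on mm9 were not used, so Frizzled family loci are not analysed here. Same-group libraries differed by 2.00 to 8.59 times counting noise (chi-square per degree of freedom). Reads carry no molecular identifiers, so counting intervals cover counting error only.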

Additional observations from a re-analysis of the deposited data

Results flagged for a closer look

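At chr5:135726950-135729398, 1 P0 neuronal library (replicate 2) lay apart from the other 4, at 0.150 CPM against 0; this is a single read. The gap between the highest or the lowest library and the next was compared with the range in 16 groups of 5. For continuous values chance alone would mark about 1 in 20. Where the other 4 libraries hold 0 reads the gap always equals the range, so this mark was certain. At chr5:135725243-135726950 the change of the cell type difference with age was tested directly and came to 1.37 on the log2 scale (edgeR adjusted p = 0.0197), with the fall in non-neurons (-2.37) larger than that in neurons (-1.0); the settings that lose this call are given above.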

How the results depend on the processing

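Apart from the crossover interval, only the 1707-bp interval of the region passed the filter. The number of other intervals called in the main analysis could thus be 0 or 1. It was 0 for cell type at P0, where 9.78% of all tested intervals were called. For cell type at P21 it was 1 (35.8% of all called), as for age in neurons (57.3%), age in non-neurons (54.3%) and the interaction (14.1%). It was 1 at P0 with limma-voom. For age in neurons it was 2 with no filter on low counts, through the 2448-bp interval. That interval shares a cut site with the crossover interval and is no independent call. For the interaction it was 0 with limma-voom and 0 with P0 replicates 4 and 5 only. Leaving out each library in turn gave 0 to 1 for cell type at P0 and for the interaction, and 1 throughout for the other 3 comparisons. The comparisons called for the 1707-bp interval kept their direction under the settings run. The replicate block moved no call: with it, the interaction at the 1707-bp interval was 1.34 (edgeR adjusted p = 0.0239) and its P0 difference 0.75 (edgeR adjusted p = 0.0501). Numbers were not taken as pairing the libraries in the main analysis. Deviations of same-numbered neurons and non-neurons correlated at -0.01 to 0.32, and not every library correlated best with its own number. Correlations this weak cannot decide whether same-numbered libraries came from the same pool, and the labels do not say. Library totals alone shifted the median age change of all intervals from 0.06 to 0.26 in neurons and from 0.03 to 0.26 in non-neurons, and upper-quartile factors shifted the P21 difference from -0.06 to -0.25. Under library totals the 1707-bp interval still fell by 0.81 in neurons and by 2.15 in non-neurons. At the crossover interval the interaction ran from 4.49 to 6.12 over the alternatives other than leaving out libraries, and both ends come from subsets of the P0 libraries. Its non-neuronal age change had no steady direction, at -0.05 in the full fit, -0.33 with P0 replicates 1 to 3 only and 0.52 with P0 replicates 4 and 5 only. Few reads limit the 2448-bp and 407-bp intervals, and the P21 non-neuronal level of the 1707-bp interval.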
